A study of Ovis aries with 6 samples.

Results

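The genes of protein folding and quality control in the endoplasmic reticulum (ER) were examined in sheep cells of the adipose stromal vascular fraction, the mixed fraction of fat tissue that holds adipocyte precursors. The set was defined by 36 gene symbols, and 33 of them had a row among the 26425 rows of the deposited table; XBP1, ERO1B and DERL3 had no row under these symbols and were not analysed here. The samples comprised 3 libraries of cells overexpressing MEOX2, a mesodermal homeobox transcription factor, and 3 libraries of control cells labelled NC. The column names of both groups carried the prefix pHBLV, and the labels give adipocyte as the cell type of all 6 samples. Animal number, age, and the time between the start of overexpression and harvest are not given in the labels, and whether the replicates were separate cultures is not stated, so each p-value measures no more than the spread among these 6 libraries.

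Secreted and membrane proteins enter the ER through the SEC61 channel, where chaperones such as BiP (HSPA5) and the lectins calnexin and calreticulin hold them while disulfide isomerases and prolyl isomerases complete their folding. Proteins that stay misfolded are passed back to the cytosol and degraded. When unfolded proteins accumulate, the membrane sensors ATF6, IRE1 (ERN1) and PERK (EIF2AK3) start the unfolded protein response, which raises the transcription of the chaperone genes. Stromal cells of fat secrete much collagen, whose chains need a chaperone and prolyl hydroxylase of their own, and differentiating adipocytes secrete adipokines.

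Transcripts of ER chaperones and disulfide isomerases made up most of the members lower in cells overexpressing MEOX2 at an unadjusted limma p under 0.05. These roles are also most of the members tested. The 12 members with a lower level at an unadjusted limma p under 0.05 were 13.3% to 32.5% below the NC mean, and they included 6 of 9 lumenal chaperones and co-chaperones and 3 of 7 disulfide isomerases and oxidases, but none of 6 degradation genes. The chaperone HSP90B1, the disulfide isomerase PDIA4 and the ER stress-induced protein CRELD2 fell past the threshold of an adjusted p of 0.05 (limma, Benjamini-Hochberg adjustment over 13121 genes). Of the 32 members tested, 3 were called lower, none was called higher and 29 were not called. Among all genes tested, 2.67% were called in either direction, 1.16% lower and 1.51% higher. The 3 MEOX2 libraries lay below the 3 NC libraries, with no overlap, for 13 members, these 12 and EIF2AK3, against 9.33% of all genes tested, and above them for 1 member, CREB3L1, against 9.6%. In either direction, 18.9% of all genes did not overlap and 13.4% had an unadjusted p under 0.05. At an unadjusted limma p under 0.05, 12 members were lower and 1 was higher, where 6.35% and 7.08% of all genes were. The log2 change was below 0 for 27 of the 32 members and for 50.7% of all genes, and the median change was -0.08 for the members and -0.0027 for all genes. In bulk RNA, fewer cells of a type cannot be told apart from less RNA per cell.

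**Figure D1:**
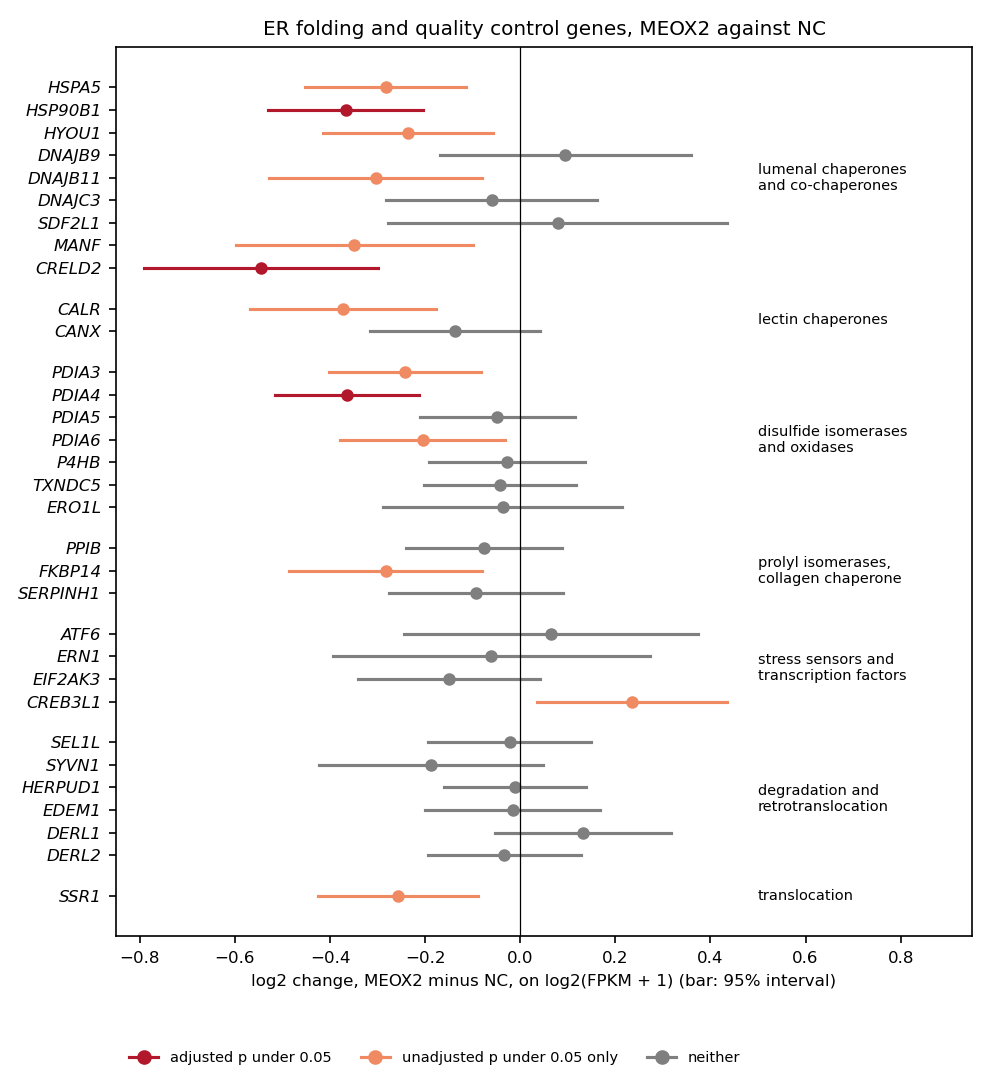
Log2 change of each of the 32 members tested, MEOX2 minus NC, on the log2(FPKM + 1) scale (points), with its 95% interval from limma (bars); genes are grouped by role. The 3 called genes, HSP90B1, CRELD2 and PDIA4, lie to the left of 0, as do 27 of the 32 points.

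Values are FPKM, reads scaled to gene length and library size, so levels can be compared between genes. The members held 1.38% to 1.44% of all reads in the MEOX2 libraries and 1.54% to 1.64% in the NC libraries, with 11772772 to 12230863 reads per library. Their summed level was 8205, 8139 and 7909 FPKM in MEOX2 replicates 1 to 3, and 9160.4, 9443 and 8558 FPKM in NC replicates 1 to 3. The sums did not overlap, and NC replicate 3 was the NC library nearest to the MEOX2 libraries. By role, the lumenal chaperones summed to 915, 950.4 and 897 FPKM with MEOX2 and to 1169, 1163 and 1087 FPKM in NC. The disulfide isomerases and oxidases summed to 2551, 2643 and 2505 FPKM with MEOX2 and to 2874, 2869.6 and 2712 FPKM in NC. Both sums were separate between groups, whereas the degradation genes summed to overlapping levels, 459, 433 and 439 FPKM with MEOX2 and 436, 444 and 438 FPKM in NC. The prolyl isomerases and the collagen chaperone also overlapped, at 2402 to 2464 FPKM with MEOX2 and 2399 to 2753 FPKM in NC. The stress sensors and their transcription factors went the other way. They summed to 315.9 to 356.6 FPKM with MEOX2 and 273.4 to 315.4 FPKM in NC, narrowly separate. The sums of the lectin chaperones and of translocation were lower with MEOX2 without overlap. The largest part of the summed level of all members came from SERPINH1, CALR, P4HB and PPIB. These ranked 65, 76, 105 and 116 by mean level among the 13121 genes tested. ERN1 was the lowest member tested, at rank 12563. SEC61B, a subunit of the translocation channel, did not pass the filter of a mean of 1 FPKM: its row had 0 or 1 read in every library. That row spans 288 bases, the same as its gene length, so it holds no intron. This row may not be the expressed SEC61B locus, and its values are not read as the level of SEC61B.

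MEOX2 itself (ENSOARG00000008280) stood at 153, 108 and 138 FPKM in the MEOX2 libraries, against 10.8, 10.1 and 9.03 FPKM in the NC libraries. These values match the labels. Its log2 change of 3.60 (SE 0.13) had a limma adjusted p of 1.15e-05, and an exact two-sided permutation test gave p = 0.1, the smallest that 3 against 3 samples can give. On the first principal component, with 34.0% of the variance, the groups separated, and on the second, with 22.2%, NC replicate 3 stood apart. Levels of members were close within a group: the coefficient of variation had a median of 4.98% over the members in MEOX2 libraries and 5.46% in NC libraries, with highest values of 14.7% and 23.7%.

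Markers of the cell types that the fraction can hold were measured in the same libraries. Of 8 adipocyte markers tested, 5 were called lower with MEOX2 by limma, against 1.16% of all genes. The sum of all 10 was 129 to 151 FPKM in MEOX2 libraries and 301 to 362 FPKM in NC libraries, with LEP at 0 in every library. The 5 were FABP4, ADIPOQ, PPARG2, PLIN1 and CIDEC, and LPL overlapped between groups. Stromal progenitor markers summed to 21210 to 23164 FPKM with MEOX2 and 20351 to 21723 FPKM in NC, a large part from COL1A1. None of 11 was called by limma, and 1 was called lower by limma voom. At an unadjusted limma p under 0.05, 3 were lower and 2 were higher, against 6.35% and 7.08% of all genes. Leukocyte markers summed to 121 to 131 FPKM with MEOX2 and 113 to 121 FPKM in NC, nearly all from CD14. PTPRC, CSF1R and AIF1 each averaged under 0.4 FPKM in either group, and MS4A1 was at 0. Of the 3 leukocyte markers tested, 2 had a log2 change below 0 and 1 above, with a median of -0.29. None was called by limma, 1 was called lower by limma voom and 1 was lower at an unadjusted limma p under 0.05. Endothelial markers summed to at most 3.40 FPKM in any library. The plasma and secretory cell markers summed to 32.3 to 34.3 FPKM in MEOX2 libraries and 25.2 to 29.7 FPKM in NC libraries, separate between groups and nearly all from SDC1, while MZB1 and IRF4 averaged under 0.1 FPKM in either group. SDC1 averaged 30.3 ± 0.931 FPKM with MEOX2 and 25.2 ± 2.55 FPKM in NC (SD, n = 3 each), a log2 change of 0.26 that was not called (limma adjusted p = 0.234). PRDM1, the other plasma cell marker tested, overlapped between groups with a log2 change of 0.08, and limma voom called neither. The summed adipocyte markers were thus also lower in the MEOX2 libraries and the summed plasma and secretory cell markers higher, and their part in the chaperone levels described here was not tested.

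HSP90B1 (GRP94, ENSOARG00000016366, chromosome 3, 172674192 to 172694453, plus strand; coordinates as deposited, on a build that the labels do not state) is the HSP90 of the ER and folds integrins and Toll-like receptors. It stood at 333, 345 and 314 FPKM in MEOX2 libraries, against 446, 412 and 422 FPKM in NC libraries. The highest MEOX2 library was well below the lowest NC library. HSP90B1 fell by 0.37 on the log2 scale (SE 0.07, 95% interval -0.53 to -0.21, limma adjusted p = 0.0342). That call was lost without any one of the 6 libraries, with limma adjusted p values from 0.0580 to 0.179.

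CRELD2 (ENSOARG00000019646, chromosome 3, 223554396 to 223560306, plus strand), a secreted, disulfide-rich protein induced by ER stress, had the largest change of the members. Its level was 25.6, 26.1 and 22.4 FPKM in MEOX2 libraries and 37.1, 40.9 and 31.9 FPKM in NC libraries. The groups were separate, with NC replicate 3 the lowest of the NC libraries. CRELD2 fell by 0.55 on the log2 scale (SE 0.11, 95% interval -0.79 to -0.30, limma adjusted p = 0.0375), and only the fit without NC replicate 3 kept the call when single libraries were left out (limma adjusted p from 0.0217 to 0.144).

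HSPA5, the ER HSP70 known as BiP, which binds the sensors and most nascent chains, was at 207, 212 and 187 FPKM in MEOX2 libraries and at 247, 253 and 238 FPKM in NC libraries. The groups did not overlap, but the change of -0.28 (SE 0.07) was not called (limma adjusted p = 0.105). HYOU1, the nucleotide exchange factor that frees BiP from its clients, stood at 31.8, 28.8 and 31.0 FPKM with MEOX2 and 36.4, 37.5 and 34.4 FPKM in NC. It too did not overlap between groups and was not called (limma adjusted p = 0.208). DNAJB11, a J-domain protein that brings clients to BiP, was at 44.8, 44.0 and 43.6 FPKM with MEOX2 and 57.0, 60.7 and 47.3 FPKM in NC. MANF, a small secreted protein that binds BiP, was at 165, 189.8 and 188 FPKM with MEOX2 and 239, 259 and 197 FPKM in NC. In both genes NC replicate 3 was the NC library closest to the MEOX2 values, and neither was called (limma adjusted p = 0.190 and 0.173). Without NC replicate 3, the lowest NC library of both, both were called (limma adjusted p = 0.0391 and 0.0491). Leaving out any other single library gave no call (limma adjusted p from 0.330 to 0.475 for DNAJB11 and from 0.250 to 0.434 for MANF).

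For the other 3 genes of this role the libraries of the groups were not separate. DNAJB9, a J-domain protein that restrains IRE1, DNAJC3, a BiP co-chaperone, and SDF2L1, which works in a complex with DNAJB11 and BiP, overlapped between groups, with log2 changes of 0.10, -0.06 and 0.08. SDF2L1 was at 15.9, 16.6 and 16.9 FPKM in MEOX2 libraries and at 17.5, 18.5 and 11.5 FPKM in NC libraries. Without NC replicate 3 its log2 change was -0.12, of the opposite sign. In all, 2 of the 9 genes of this role were called lower by limma and 3 by limma voom on recovered reads, against 1.16% and 1.97% of all genes. The median change of the role was -0.28.

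**Figure D2:**
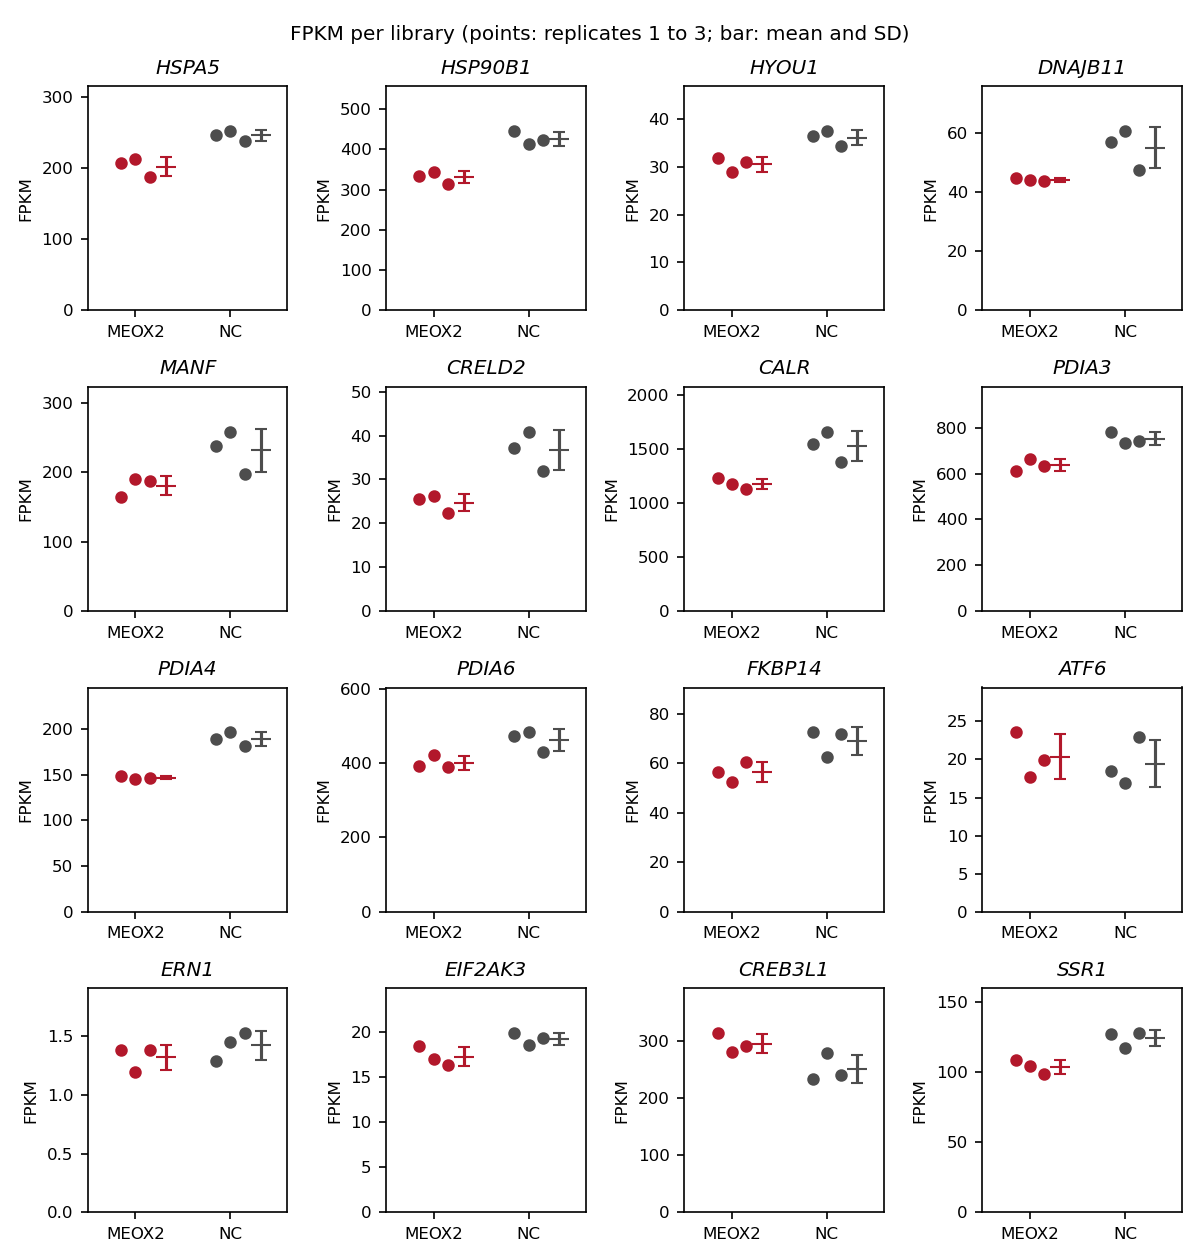
FPKM in each library (points, replicates 1 to 3 from left to right) for the 13 members with an unadjusted limma p under 0.05 and for ATF6, ERN1 and EIF2AK3; bars give the mean and SD of 3 libraries, MEOX2 in red and NC in grey, and each axis starts at 0. The groups are separate for the 12 lower members, narrowly separate for CREB3L1 and EIF2AK3, and overlap for ATF6 and ERN1.

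Both lectin chaperones retain glycoproteins through their trimmed sugar chains, calnexin in the membrane and calreticulin in the lumen. CALR, calreticulin (ENSOARG00000009870, chromosome 5, 10700649 to 10703831, minus strand), was at 1228, 1171 and 1132 FPKM with MEOX2 and at 1543, 1659 and 1379 FPKM in NC. All MEOX2 libraries were below all NC libraries. The change of -0.37 (SE 0.09) missed the threshold (limma adjusted p = 0.0662). It passed with limma voom on recovered reads (adjusted p = 0.00584), with quantile normalization (limma adjusted p = 0.0280) and without NC replicate 3 (limma adjusted p = 0.0356). It missed the threshold by more without a filter, without the trend and with the replicate block (limma adjusted p = 0.181, 0.131 and 0.0906). Leaving out any other single library gave no call either (limma adjusted p up to 0.246). CANX, calnexin, overlapped between groups, averaging 116 ± 8.21 FPKM in MEOX2 libraries and 127 ± 5.54 FPKM in NC (SD, n = 3 each), with a log2 change of -0.14 (95% interval -0.32 to 0.04). The CALR to CANX ratio within a library, chosen after the values were seen, was 9.87, 10.2 and 10.5 in MEOX2 libraries and 12.1, 13.6 and 10.4 in NC libraries, so the ratios overlapped through NC replicate 3.

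Among the disulfide isomerases, 1 was called. PDIA4 (ERp72, ENSOARG00000018882, chromosome 4, 111555467 to 111572217, minus strand), an isomerase with several thioredoxin domains, was at 148, 145 and 146 FPKM in MEOX2 libraries and at 189, 196 and 182 FPKM in NC libraries. The MEOX2 libraries lay closer together than the NC libraries and well under them. PDIA4 fell by 0.36 on the log2 scale (SE 0.07, 95% interval -0.52 to -0.21, limma adjusted p = 0.0263). As with CRELD2, only the fit without NC replicate 3 kept the call when single libraries were left out (limma adjusted p from 0.0309 to 0.137).

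PDIA3 (ERp57), the isomerase that works with calnexin and calreticulin, was at 612, 663 and 633 FPKM with MEOX2 and at 784, 733 and 740.5 FPKM in NC. PDIA6 was at 391, 422 and 388 FPKM with MEOX2 and at 474, 483 and 429 FPKM in NC. Neither overlapped and neither was called (limma adjusted p = 0.140 and 0.266). P4HB, the classical protein disulfide isomerase and also a subunit of collagen prolyl 4-hydroxylase, had 1005 ± 37.6 FPKM with MEOX2 and 1025 ± 48.2 FPKM in NC (SD, n = 3 each). Its log2 change was -0.03 with a 95% interval of -0.19 to 0.14. PDIA5, TXNDC5 and the oxidase ERO1L, which recharges the isomerases, also overlapped, with log2 changes of -0.05, -0.04 and -0.04. The PDIA4 to P4HB ratio within a library, chosen in the same way, was 0.146, 0.141 and 0.152 in MEOX2 libraries and 0.185, 0.183 and 0.186 in NC libraries. These ratios did not overlap. Because the pair was chosen after its values were seen, this separation is not a test of unequal change. Of other ratios computed, HSP90B1 to HSPA5 overlapped between groups and CALR to SERPINH1 did not.

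Of the proline isomerases and the collagen chaperone, FKBP14, a collagen-binding prolyl isomerase, was at 56.4, 52.6 and 60.4 FPKM with MEOX2 and at 72.5, 62.4 and 71.9 FPKM in NC. The groups were separate and the change of -0.28 (SE 0.09) was not called (limma adjusted p = 0.175). PPIB, cyclophilin B, averaged 876 ± 18.2 FPKM with MEOX2 and 924 ± 51.8 FPKM in NC (SD, n = 3 each). SERPINH1, the collagen chaperone HSP47, averaged 1492 ± 27.4 FPKM with MEOX2 and 1595 ± 132 FPKM in NC (SD, n = 3 each). Both overlapped between groups, with log2 changes of -0.08 and -0.09. None of the 3 was called by limma or by limma voom, with 1 at an unadjusted p under 0.05.

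SERPINH1 binds procollagen, so its level was set beside that of COL1A1, the main chain of type I collagen. The SERPINH1 to COL1A1 ratio within a library, also chosen after the values were seen, was 0.134, 0.138 and 0.151 in MEOX2 libraries and 0.171, 0.169 and 0.168 in NC libraries. The ratios did not overlap between groups, although both genes did. COL1A1 averaged 10594 ± 759 FPKM in MEOX2 libraries and 9410.4 ± 767 FPKM in NC (SD, n = 3 each), with a limma adjusted p of 0.504. For a pair chosen in this way, the separation is not a test of unequal change.

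Transcripts of the stress sensors did not pass the threshold. ATF6 was at 23.6, 17.6 and 19.9 FPKM in MEOX2 libraries and at 18.5, 17.0 and 22.9 FPKM in NC libraries. ERN1 was at 1.38, 1.195 and 1.38 FPKM with MEOX2 and at 1.29, 1.44 and 1.52 FPKM in NC, on 53 to 67 reads per library. Both overlapped between groups, with wide 95% intervals on the log2 scale, -0.24 to 0.37 for ATF6 and -0.39 to 0.27 for ERN1. EIF2AK3 was at 18.5, 17.0 and 16.3 FPKM with MEOX2 and at 19.9, 18.6 and 19.3 FPKM in NC, separate by a narrow margin and not called (limma adjusted p = 0.511). Transcript levels do not measure whether the sensors were active, and splicing of XBP1 mRNA by IRE1 was not analysed here.

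CREB3L1 (OASIS, ENSOARG00000003188, chromosome 15, 74512587 to 74549657, plus strand), a membrane-bound transcription factor that drives type I collagen expression in mouse osteoblasts, was the member with the highest positive change. It was at 313, 280.1 and 291 FPKM in MEOX2 libraries and at 234, 278 and 239 FPKM in NC libraries. MEOX2 replicate 2 and NC replicate 2 nearly met. The log2 change of 0.24 (SE 0.09) was not called (limma adjusted p = 0.266). Of the 4 genes of this role tested, none was called by limma or by limma voom, with 1 at an unadjusted p under 0.05.

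None of the degradation genes differed past the threshold. SEL1L and SYVN1, the adaptor and the ubiquitin ligase of the main degradation complex, had log2 changes of -0.02 and -0.19. HERPUD1, a stress-induced scaffold of that complex, averaged 151 ± 4.60 FPKM in MEOX2 libraries and 152 ± 2.65 FPKM in NC (SD, n = 3 each), a change of -0.01 with a 95% interval of -0.16 to 0.14. EDEM1, which marks misfolded glycoproteins, and the channel proteins DERL1 and DERL2 had log2 changes of -0.02, 0.13 and -0.03. DERL1 was at 137, 117.5 and 119.5 FPKM with MEOX2 and 112, 117.7 and 110.7 FPKM in NC, with MEOX2 replicate 1 the highest library and the others close together. All 6 genes overlapped between groups, and none was called by limma or by limma voom or had an unadjusted p under 0.05. In translocation, SSR1, the alpha subunit of the translocon-associated complex, was at 108, 105 and 98.3 FPKM with MEOX2 and at 127, 117 and 128 FPKM in NC. Its groups did not overlap, and its change of -0.26 (SE 0.07) was not called (limma adjusted p = 0.140).

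Members differed in which NC library was lowest. For the 12 members lower at an unadjusted p under 0.05, NC replicate 3 was the lowest NC library in 8 and NC replicate 2 in 4. Without NC replicate 3, limma called 5 members lower, CALR, MANF, PDIA4, DNAJB11 and CRELD2, where 2.1% of all genes were called and 0.93% were lower. Limma voom on the recovered reads also called 5 members lower, CALR, HSP90B1, HSPA5, PDIA4 and CRELD2, where 4.35% of all genes were called and 1.97% were lower. Without any one of the other 5 libraries, limma called none, with 8 to 12 members lower at an unadjusted p under 0.05 in each such fit. Quantile normalization gave 4 members (2.68% of all genes called, 1.19% lower) and no filter on low values gave 1 (1.04% and 0.432%). The replicate block gave 1 member (1.84% and 0.815%), and a fit without the trend gave none (2.27% and 0.96%), with 11 members lower at an unadjusted p under 0.05. Of the 16 members with a mean of at least 100 FPKM, 2 were called lower, 8 were lower without overlap between groups and 14 had a change below 0. The median change of these 16 was -0.17. Of the 1019 genes at that level, 3.24% were called lower, 13.5% were lower without overlap and 51.7% had a change below 0.

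**Figure D3:**
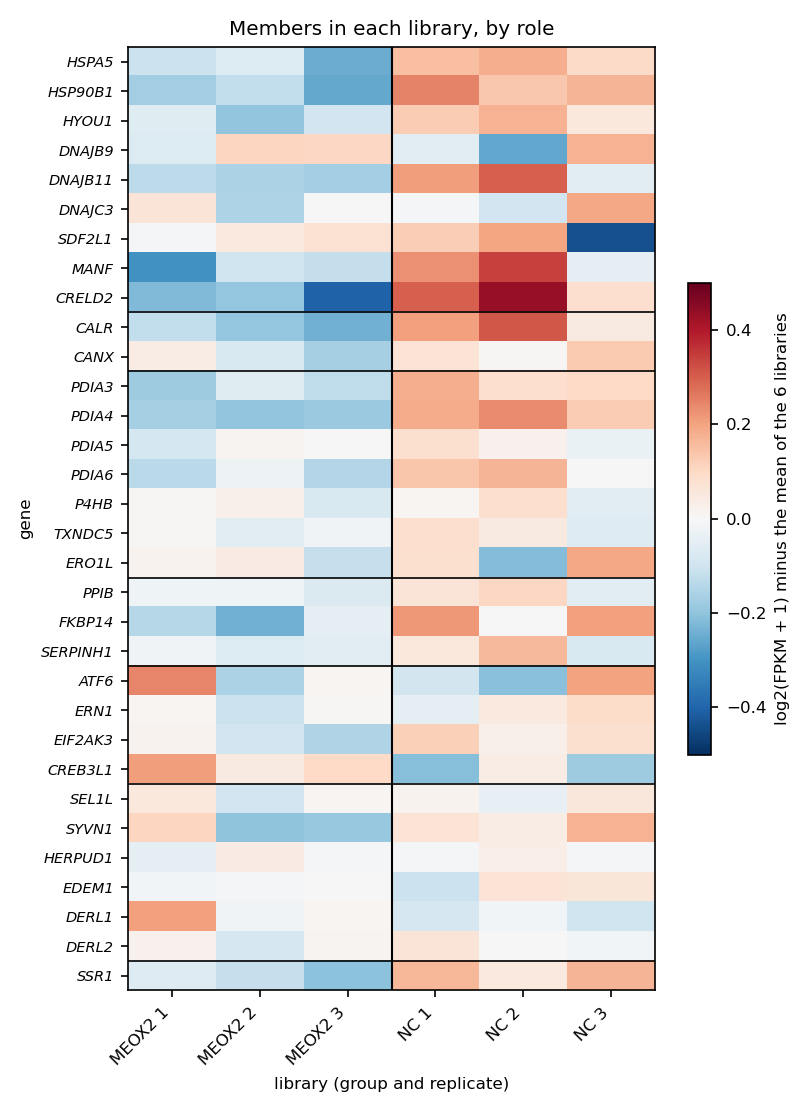
Each member in each library as log2(FPKM + 1) minus its mean over the 6 libraries (red higher, blue lower), with MEOX2 libraries left of NC libraries and lines between roles. The rows of the 12 lower members are blue in the 3 MEOX2 libraries, and the rows of most degradation genes are pale; NC replicate 3 is pale or blue for MANF, DNAJB11 and SDF2L1.

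Other genes of the secretory pathway and its relatives were taken from 13 lists. Among all genes tested, 1.16% were called lower by limma, and 6.35% were lower and 7.08% higher at an unadjusted limma p under 0.05. Oligosaccharyltransferase, which attaches the sugar chain read by the lectins, had all 11 subunits below 0, from -0.31 for OST4 to -0.0094 for TUSC3, with a median of -0.19. Limma and limma voom called none of them, and 7 had an unadjusted limma p under 0.05. OST4, a small subunit whose row holds 111 bases and no intron, was at 395, 438 and 459 FPKM in MEOX2 libraries and at 547, 548 and 503 FPKM in NC libraries, and OSTC at 165, 174 and 153 FPKM with MEOX2 and 195, 201 and 199 FPKM in NC. Both were separate between groups (limma adjusted p = 0.105 and 0.107).

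In the calnexin cycle and glycoprotein sorting, LMAN1 (ERGIC-53), the lectin that carries glycoproteins out of the ER, fell by 0.33 on the log2 scale (SE 0.07, limma adjusted p = 0.0467). Its level was 38.8, 38.3 and 37.4 FPKM with MEOX2 and 48.6, 47.4 and 48.3 FPKM in NC. Leaving out any single library ended this call (limma adjusted p from 0.0753 to 0.208), as did a pseudocount of 0.1, a fit without the trend and the replicate block (limma adjusted p = 0.0505, 0.0993 and 0.140). The other 8 genes tested were not called, and the median of the list was -0.15. Among the 17 genes of COPII carriers, which leave the ER, and KDEL receptors, which return escaped chaperones to it, none was called by limma, 1 was by limma voom and 3 had an unadjusted p under 0.05, all lower, with a median of -0.13. KDELR2 was at 290.0, 242 and 285 FPKM with MEOX2 and at 338, 328 and 358 FPKM in NC, and KDELR1 at 136, 119.7 and 125 FPKM with MEOX2 and 149, 159.8 and 147 FPKM in NC. Both were separate between groups.

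Among folding enzymes outside the set no gene was called by limma. Of 16 other ER oxidoreductases, chaperones and co-chaperones, limma voom also called none, and 1 had an unadjusted p under 0.05, the oxidase QSOX1 with a log2 change of 0.21; the median was -0.06. ERO1LB, another oxidase, averaged 8.13 ± 0.466 FPKM in MEOX2 libraries and 9.27 ± 1.01 FPKM in NC (SD, n = 3 each). Of 5 other ER prolyl isomerases, FKBP7, with a log2 change of -0.31 (limma adjusted p = 0.0594), was called by limma voom (adjusted p = 0.0346); the median was -0.10 (-0.16 to -0.060 with single libraries left out). Of 19 genes of the translocon, signal recognition and signal peptidase, none was called by either, 1 was lower and 1 higher at an unadjusted p under 0.05, and the median was -0.06 (-0.085 to -0.020 with single libraries left out). SSR3, a partner of SSR1, had a log2 change of -0.22 and SRP9 one of 0.23.

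Degradation and stress signalling genes outside the set were taken from the same lists. Of 21 other ER-associated degradation genes, none passed the threshold with limma or with limma voom, and none had an unadjusted p under 0.05; the median was 0.0033, with 10 below 0 and 11 above, and ran from -0.026 to 0.0096 with single libraries left out. Of 9 other ER stress transducers and their proteases, none passed either, and none had an unadjusted p under 0.05, with a median of -0.0010. Without any single library that median was above 0, from 0.012 to 0.10, the highest without NC replicate 1. Of 12 outputs of PERK and the integrated stress response, none was called by limma and 2 had an unadjusted p under 0.05, VLDLR with a log2 change of 0.46 and NUPR1 with one of -0.42; the median was -0.05, and -0.00081 without NC replicate 2. Limma voom called both. ATF4, the central factor of that response, averaged 551 ± 11.8 FPKM in MEOX2 libraries and 573 ± 29.7 FPKM in NC (SD, n = 3 each). DDIT3 (CHOP) was listed at 0 in all 6 libraries. A row without any read may not measure the expressed gene, and its values are not read as the level of DDIT3.

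**Figure D4:**
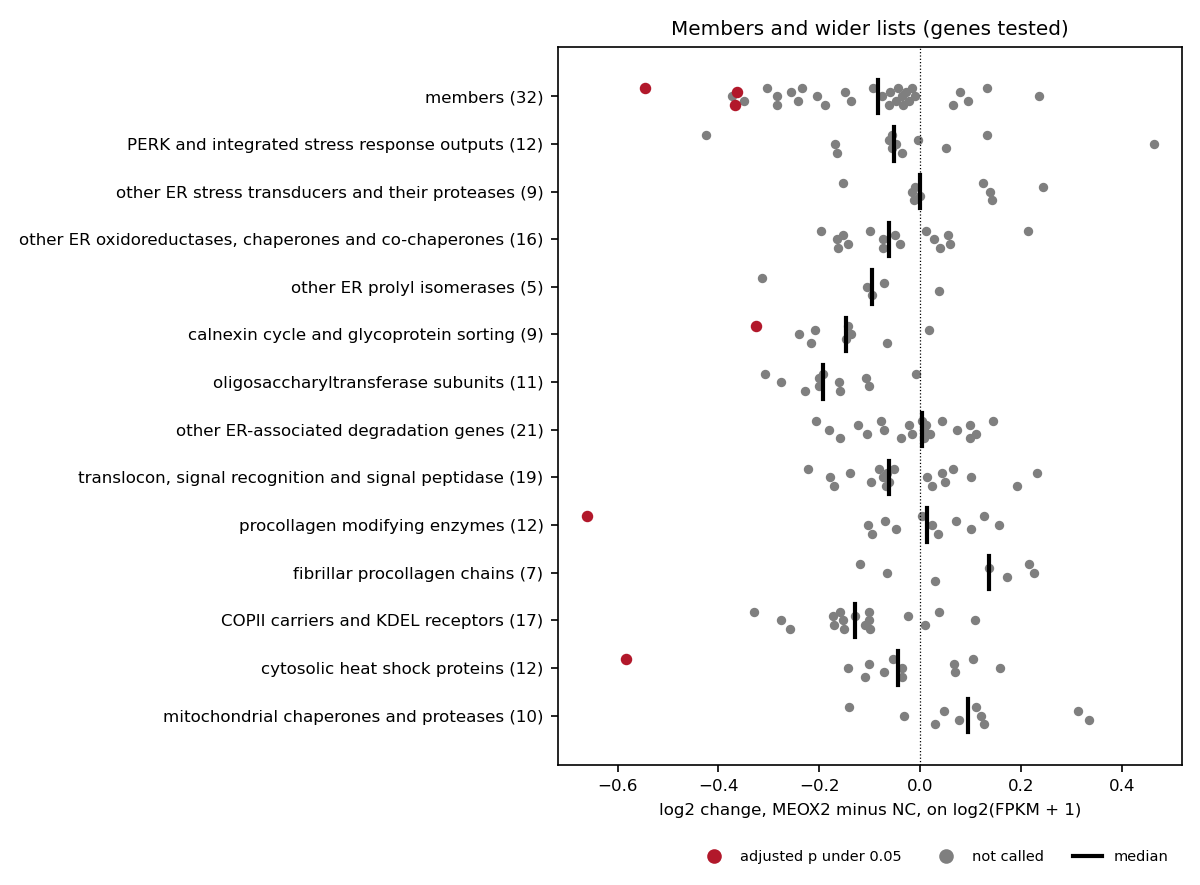
Log2 change, MEOX2 minus NC, on the log2(FPKM + 1) scale for each gene tested (points, red where the limma adjusted p is under 0.05) in the members and in 13 wider lists; black bars are medians and numbers in brackets count the genes tested. The oligosaccharyltransferase median is at -0.19 and that of the other degradation genes at 0.0033 (-0.026 to 0.0096 with single libraries left out).

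Collagen clients and enzymes were set beside the chaperones. Of 7 fibrillar procollagen chains, none passed the threshold with limma or with limma voom, and 2 had an unadjusted p under 0.05, both higher; the median was 0.14, with 0.013 without NC replicate 3 and 0.21 without NC replicate 2. COL1A2 was at 7834, 7826 and 7027 FPKM with MEOX2 and at 6539, 6747 and 6229 FPKM in NC, separate between groups and not called (limma adjusted p = 0.278). Of 12 procollagen modifying enzymes, LEPREL1 (prolyl 3-hydroxylase 2) fell by 0.66 (SE 0.11, limma adjusted p = 0.0155) and 11 were not called; the median was 0.01, and -0.048 to 0.054 with single libraries left out. LEPREL1 averaged 5.78 ± 0.631 FPKM in MEOX2 libraries and 9.70 ± 0.589 FPKM in NC (SD, n = 3 each), and lost its call without MEOX2 replicate 3, NC replicate 1 or NC replicate 2 (limma adjusted p up to 0.0659) and without a filter on low values (limma adjusted p = 0.0529).

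Chaperones of other compartments were set beside these. Of 12 cytosolic heat shock genes, HSPB1 (HSP27), a small heat shock protein, fell by 0.58 (SE 0.11, limma adjusted p = 0.0294), and 11 were not called; the median was -0.04 (-0.069 to -0.017 with single libraries left out). HSPB1 was at 117, 128 and 124 FPKM with MEOX2 and at 164, 175 and 219 FPKM in NC, and was no longer called without NC replicate 2 or any of the MEOX2 replicates (limma adjusted p up to 0.0985), without a filter (limma adjusted p = 0.0863) or without the trend (limma adjusted p = 0.0671). Of 10 mitochondrial chaperones and proteases, none was called by limma and 1 was by limma voom, HSPA9, the mitochondrial HSP70, with a log2 change of 0.31; 8 were above 0, and the median was 0.09, and 0.031 without NC replicate 3.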

How the data were processed

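RNA from 6 sheep samples was sequenced after TRIzol extraction and NEBNext Ultra library preparation, per the labels' protocols. The submitters' processing notes name DESeq2 1.20.0, featureCounts 1.5.0-p3, HISAT2 2.0.5, fastp and CASAVA 1.8, without roles. Build, annotation and strandedness were not given in the sources used here. Overlapping or antisense genes and close paralogs may share reads. The authors deposited gene-level FPKM with a gene length per row. FPKM times length gave whole reads for 100% of values above 0 (tolerance 0.001 reads).

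Members were rows whose symbol was among the 36 given. Genes averaging 1 FPKM or more (13121) were fitted on log2(FPKM + 1) with limma 3.58.1 (R 4.3.3; intensity trend, no covariates) and adjusted by Benjamini-Hochberg at 0.05; a log2 change on this scale understates that of low genes. The fit was also run on simulated reads whose changes were larger than that of any member, so it does not gauge changes of this size. The exact permutation test used scipy 1.17.1. Lists are described by counts and medians, without a test. Alternatives were pseudocounts of 0.1 and 5, other filters and scalings, variance models, limma voom with TMM (trimmed mean of M-values) on the recovered reads, a replicate block and each library left out. All members were named, with values per library for those at an unadjusted p under 0.05 and for the sensors. Values per library of SDF2L1 and DERL1 were given outside this rule. Of each list, called genes or up to 3 with the smallest p were eligible. ATF4, DDIT3, ERO1LB, COL1A1 and the ratios were chosen after their values were seen. Members and lists were chosen with earlier results of these data known. Promoter and protein motifs were not analysed here. Chi-square per gene between replicates was 3.62 to 11.8, so no library was counted as a copy.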

Additional observations from a re-analysis of the deposited data

How the results depend on the processing

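The 350 genes called became 194 without a filter on low values, 571 with limma voom on recovered reads and 117 to 276 with single libraries left out. The 3 members called became 1 without a filter (PDIA4), 0 without the trend (limma, with 11 members lower at an unadjusted p under 0.05), 5 with limma voom and 0 to 5 with single libraries left out. With the replicate block, limma called 242 genes and 1 member, CRELD2; same-numbered libraries did not deviate together (correlations of -0.0747, 0.0204 and -0.0042), so the numbers were not taken as pairs. Over the other pseudocounts, filters and scalings and the robust fit, limma called 3 or 4 members. The median log2 change of the members, -0.08, was -0.14 to -0.08 with single libraries left out, the lowest without NC replicate 2 (-0.139) and the highest without MEOX2 replicate 2 (-0.0827). HSP90B1, PDIA4 and CRELD2 kept a negative change in every setting. Signs turned only in members that were not called: P4HB was 0.0067 with quantile normalization, and with single libraries left out the log2 changes ran from -0.0606 to 0.0069 for P4HB, -0.040 to 0.18 for ATF6, -0.010 to 0.21 for DNAJB9, -0.12 to 0.021 for DNAJC3, -0.073 to 0.015 for EDEM1, -0.16 to 0.050 for ERO1L, -0.033 to 0.010 for HERPUD1, -0.12 to 0.20 for SDF2L1 and -0.055 to 0.020 for SEL1L. The causes were not tested. ERN1 had the fewest reads of the members tested, 53 to 67 per library.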
